A study of Nicotiana tabacum with 30 samples.

Results

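A set of 10 tobacco genes had a transient trough 4 h into a drought series: in leaves of both genotypes their level was lower at 4 h than at 0 h and higher again at 8 h. The members were chosen on measured values, as the mean of log2(FPKM + 1) over the 3 libraries of each group. A gene was taken if, in both genotypes, its 4 h mean lay at least 0.8 below its 0 h mean, its 8 h mean lay at least 0.8 above its 4 h mean, and its 1 h mean had not yet dropped by 0.8. FPKM counts fragments per kilobase of gene, scaled to the mapped fragments of the library. Of 35519 gene IDs, 19599 averaged 1 FPKM or more over the 30 libraries, and 10 of these met the rule.

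Leaves of tobacco (Nicotiana tabacum) were sequenced in 30 libraries, 3 for each of 2 genotypes at 5 times. M28 is a line derived from the cultivar K326 by mutagenesis with ethyl methanesulfonate, and the submitters describe it as more drought resistant; K326 is its parent. Groups were M28 at 0, 1, 2, 4 and 8 h of drought and K326 at the same times. The plants were potted seedlings with fully grown leaves, grown in long days, and the protocol speaks of natural drought and of drought simulated with mannitol without saying which applied to a given library. The labels give leaf as the tissue, while the source field speaks of seeds, and gene IDs with no names did not allow a check against leaf markers. M28 is a single line, and nothing in the labels ties a library to its own pot or plants, so a p-value here reflects only how far these libraries scatter, which may be partly technical. All libraries after 0 h were under drought, so time under drought and time of day cannot be told apart. FPKM totals lay between 753424 and 855427, the depth in reads is unknown, and the lowest correlation between replicates was 0.969.

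As background, a leaf that loses water raises its abscisic acid, closes its stomata and changes the transcription of many genes, some within minutes and some after hours. The level of a transcript at any time is set by its synthesis and its decay, and a change in either can lower it or raise it again. Many leaf transcripts also follow a daily rhythm. Each ID names a scaffold and a gene on it. A search of RefSeq's gene table for the K326 assembly ASM71507v2 matched 0 of the 35519 IDs, so no function can be given for any of the 10 genes. They are numbered here from 1, the highest mean level, to 10, the lowest. Their mean levels ran from 242 to 3.09 FPKM, and 8 of the 10 lay above the median of the 19599 genes, 12.1 FPKM. The log2(FPKM + 1) scale makes the differences of low genes smaller, so the rule itself favours abundant genes. Each member lay on a scaffold of its own, 10 scaffolds in all.

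Few of the 19599 genes met the rule in both genotypes. The 4 h mean was lower than the 0 h mean by at least 0.8 in both genotypes for 621 genes, and 31 of these, 4.99%, had risen by at least 0.8 at 8 h in both. The share of all genes with such a rise is not given, so the 4.99% is not read as low or high. Of the 31, 21 missed the bound at 1 h in at least 1 genotype. Taken in one genotype at a time, the rule was met by 61 genes in M28 and by 28 in K326. The 10 shared genes were 16.4% of the M28 list and 35.7% of the K326 list. Of the 51 genes that met it in M28 and not in K326, 13 missed only the drop at 4 h in K326, 10 only the later rise and 5 only the bound at 1 h, while 23 missed several. Of these 51 genes, 43 were lower at 4 h than at 0 h and higher at 8 h than at 4 h in K326, by any amount. The median 4 h minus 0 h log2 difference over all 51 was -0.72, against 0.1 over all genes. Of the 18 genes that met it in K326 and not in M28, 15 were lower and then higher by any amount in M28. The median over all 18 was -0.71, against 0.05 over all genes. At 4 h, 39.8% of all genes were lower than at 0 h in K326 and 44.6% in M28. At 8 h, 36.2% were lower than at 4 h in K326 and 42.7% in M28. The share of all genes that were lower and then higher is not given, so nothing is read from the 43 and the 15. Genes that missed only the bound at 1 h, 3 in M28 and 5 in K326, met the drop and the rise in full. With a pseudocount of 0.1 FPKM in place of 1, which gives low genes more weight, the rule was met by 94 genes in M28, by 69 in K326 and by 19 in both.

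**Figure D1:**
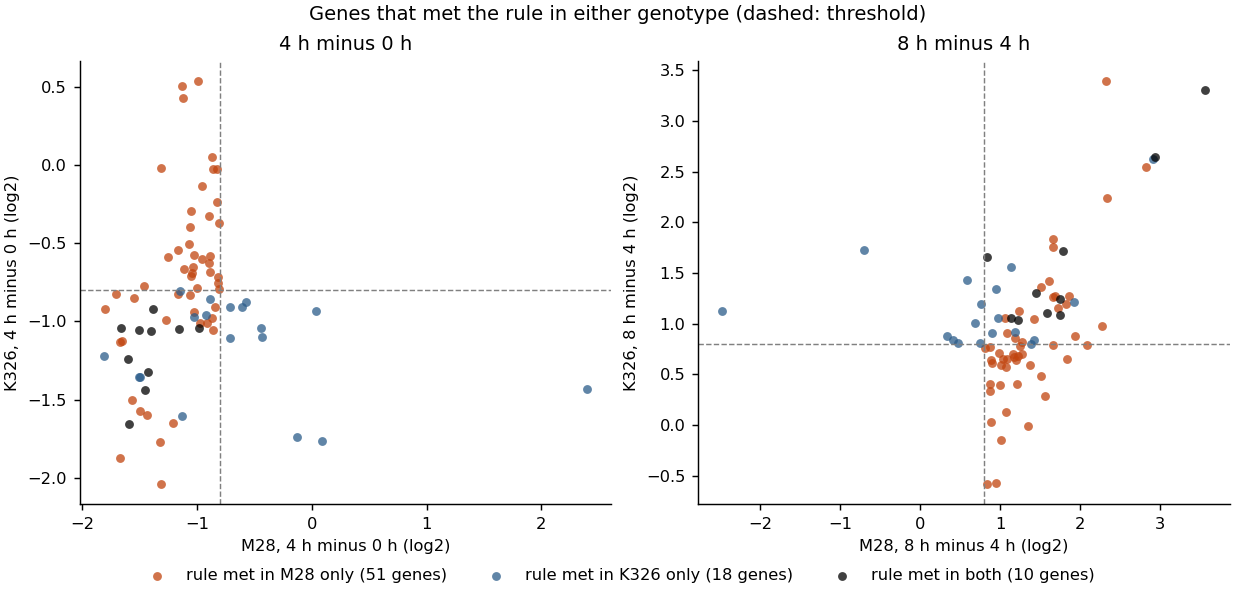
Log2 differences of the 79 genes that met the rule in either genotype, M28 on the horizontal and K326 on the vertical axis, for 4 h minus 0 h (left) and 8 h minus 4 h (right); each point is 1 gene and dashed lines mark the threshold. The 10 shared genes lie past both lines in both panels, and the others fall short of at least 1 line or of the bound at 1 h.

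Some genes lay close to the border. The nearest gene outside missed by 0.01, with a rise of 0.79 from 4 to 8 h in K326 where 0.8 was asked, and it was far more abundant than any member, with a mean of 2280 FPKM. The next one, with a mean of 66.8 FPKM, had differences of -0.79 at 4 h in both genotypes. Just inside, member 10 cleared its nearest threshold by 0.04, member 2 by 0.07 and member 6 by 0.12.

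The values that chose the members are described first, with no test. These are bulk leaf samples, in which fewer cells of a type and less RNA per cell cannot be told apart. Median log2 differences from 0 h over the 10 members were -0.15, -0.59, -1.44 and 0.25 at 1, 2, 4 and 8 h in M28. They were -0.25, -0.75, -1.06 and 0.15 in K326. The medians over all 19599 genes were 0.05 at 4 h and 0.12 at 8 h in M28, and 0.10 and 0.21 in K326. For members 1 to 9, the mean FPKM at 4 h was 29.5 to 48.4% of that at 0 h in M28 and 29.0 to 50.0% in K326. The log2 difference at 4 h was lower in M28 than in K326 for 8 of the 10, as for 58.7% of all genes. By the share of the 0 h FPKM left at 4 h, 2 of these 8 were instead lower in K326. They were member 4 (34.7% in M28, 34.1% in K326) and member 10 (35.6% and 0%). The 4 h mean was the lowest of the 5 times for 9 members in M28, 9 in K326 and 8 in both. For 9 members the 3 libraries at 4 h lay below all libraries at 0 h and at 8 h in both genotypes, as did 2.13% of all genes tested. The rule used these contrasts, so nothing is read from that count.

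**Figure D2:**
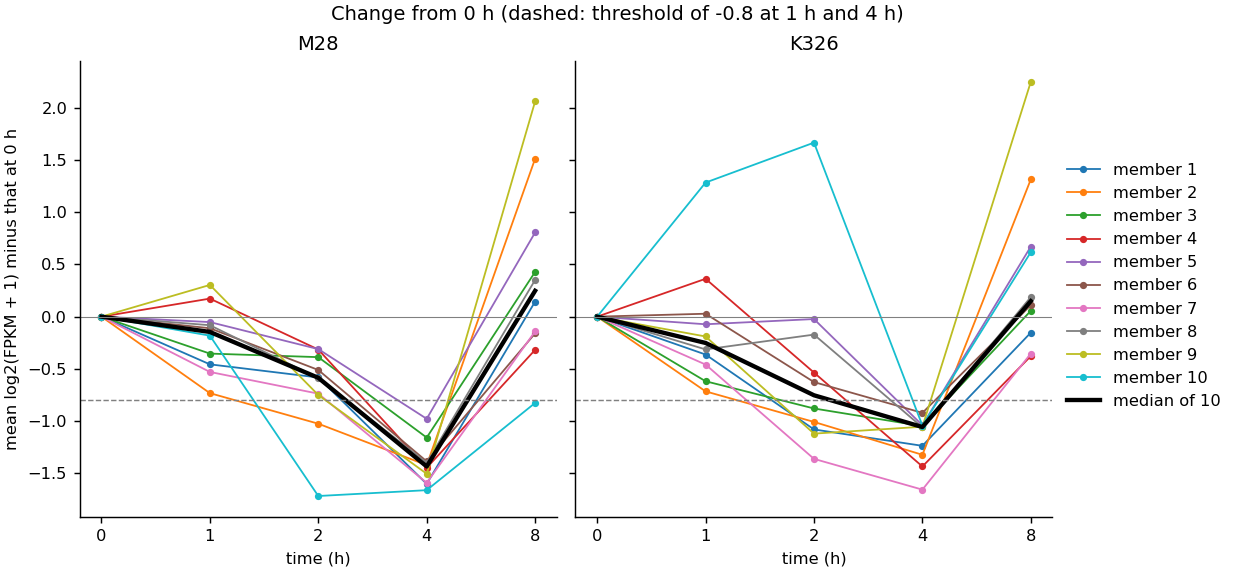
Change of mean log2(FPKM + 1) from 0 h at each time for the 10 members, M28 on the left and K326 on the right, with the median over the members in black; the dashed line is the rule's threshold of -0.8. In both genotypes the median is lowest at 4 h (-1.44 in M28, -1.06 in K326) and near 0 at 8 h (0.25 and 0.15), with members 9 and 2 highest at 8 h.

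Member 10 does not show a course like the others. It was listed at 0 in 11 of 30 libraries and otherwise stood between 3.24 and 7.76 FPKM, with nothing in between, whereas members 1 to 9 were listed at 0 in none. In M28 its values for replicates 1 to 3 were 4.11, 4.58 and 5.90 FPKM at 0 h, 3.24, 3.93 and 5.45 at 1 h, 0, 0 and 4.51 at 2 h, 0, 5.20 and 0 at 4 h, and 4.39, 5.54 and 0 at 8 h. In K326 they were 0, 7.76 and 0 at 0 h, 4.66, 3.96 and 3.52 at 1 h, 6.55, 4.77 and 5.47 at 2 h, 0 in all 3 at 4 h, and 0, 4.09 and 5.22 at 8 h. Its group means therefore follow the number of libraries listed at 0, and whether such a 0 is an absence or a failed estimate was not tested. The gene stopped meeting the rule when any of 5 single libraries was left out. It was retained in the counts below, where none of its tests passed. Without it the median log2 difference at 4 h was -1.42 in M28 and -1.06 in K326.

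The most abundant members were numbers 1 and 2. Member 1 is Nitab4.5_0001317g0050. In M28 its replicates 1 to 3 stood at 405, 340 and 344 FPKM at 0 h, 302, 245 and 247 at 1 h, 243, 233 and 248 at 2 h, 132, 113 and 112 at 4 h, and 431, 420 and 354 at 8 h. In K326 they stood at 323, 285 and 262 FPKM at 0 h, 240, 188 and 251 at 1 h, 147, 146 and 117 at 2 h, 119, 120 and 127 at 4 h, and 256, 278 and 246 at 8 h. The genotypes overlapped at 1 h and at 4 h, and at 0, 2 and 8 h every M28 library was above every K326 library. At 2 h the gene still stood near its 1 h level in M28, while in K326 it was already close to its 4 h level. The log2 difference between 4 h and 0 h was -1.60 in M28 and -1.24 in K326.

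Member 2, Nitab4.5_0000091g0360, was lower at each time up to 4 h and then stood far above its starting level. In M28 it averaged 86.9 ± 6.20 FPKM (SD, n = 3, as for the other means) at 0 h, 52.6 ± 11.4 at 1 h, 42.2 ± 3.66 at 2 h, 31.8 ± 2.17 at 4 h, before 250.0 ± 23.0 at 8 h. In K326 it averaged 71.1 ± 2.22 FPKM at 0 h, 43.0 ± 3.44 at 1 h, 34.8 ± 0.541 at 2 h, 27.9 ± 3.06 at 4 h, before 179 ± 7.36 at 8 h. Replicates at 8 h were 236, 277 and 239 FPKM in M28 and 174, 175 and 187 FPKM in K326, and no library at an earlier time came near them. The 8 h mean was 288% of the 0 h mean in M28 and 251% in K326. This gene was also the closest of members 1 to 9 to the rule's bound at 1 h, with differences of -0.73 and -0.72.

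The deepest troughs among members of at least 5 FPKM at 0 h in both genotypes were those of members 7 and 4. Member 7, Nitab4.5_0004095g0010, had 27.3, 19.3 and 19.3 FPKM at 0 h, 16.0, 15.4 and 12.8 at 1 h, 13.2, 11.8 and 12.9 at 2 h, 7.58, 6.12 and 5.93 at 4 h, and 20.6, 19.3 and 18.8 at 8 h in M28. In K326 it had 26.0, 22.0 and 20.1 FPKM at 0 h, 14.5, 16.6 and 17.5 at 1 h, 7.94, 9.18 and 7.44 at 2 h, 7.59, 7.22 and 4.90 at 4 h, and 17.1, 16.7 and 18.6 at 8 h. The genotypes overlapped at 0, 1 and 4 h, and all M28 libraries lay above all K326 libraries at 2 h and, by a small margin, at 8 h. The log2 difference between 4 h and 0 h was -1.59 in M28 and -1.66 in K326.

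Member 4, Nitab4.5_0000241g0060, had the higher mean in M28 at all 5 times. Its M28 libraries had 32.3, 41.3 and 44.5 FPKM at 0 h, 54.3, 45.8 and 34.5 at 1 h, 32.5, 30.3 and 30.7 at 2 h, 13.7, 13.5 and 13.8 at 4 h, and 39.6, 27.9 and 27.3 at 8 h. Its K326 libraries had 19.4, 21.3 and 23.9 FPKM at 0 h, 39.3, 18.1 and 30.3 at 1 h, 15.2, 14.5 and 13.8 at 2 h, 6.55, 6.98 and 8.50 at 4 h, and 15.7, 16.3 and 16.9 at 8 h. The genotypes overlapped only at 1 h, where the spread was widest. In both genotypes 1 h was the highest of the 5 times, and the trough was of like depth, -1.45 in M28 and -1.44 in K326 on the log2 scale.

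Member 9, Nitab4.5_0000130g0300, had the largest difference between 4 and 8 h. M28 libraries stood at 9.08, 10.1 and 9.21 FPKM at 0 h, 16.1, 10.5 and 9.94 at 1 h, 5.68, 5.41 and 4.61 at 2 h, 4.09, 2.31 and 1.96 at 4 h, and 49.7, 37.7 and 41.6 at 8 h. K326 libraries stood at 4.42, 2.26 and 2.58 FPKM at 0 h, 2.89, 1.26 and 3.83 at 1 h, 0.722, 0.868 and 0.913 at 2 h, 1.32, 0.677 and 0.811 at 4 h, and 14.0, 20.3 and 20.4 at 8 h. Every M28 library lay above every K326 library of its time. Between 8 h and 4 h the log2 difference was 3.57 in M28 and 3.31 in K326, and the 8 h mean was 454% of the 0 h mean in M28 and 590% in K326. In K326 the lowest mean came at 2 h, 0.834 FPKM, beside 0.936 FPKM at 4 h, and at such levels the pseudocount makes log2 differences smaller than the change in FPKM.

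Members 3, 5, 6 and 8 had shallower or more variable courses. Member 3 averaged 68.5 ± 1.29, 53.5 ± 4.31, 52.1 ± 2.14, 30.2 ± 3.19 and 92.6 ± 4.89 FPKM at 0, 1, 2, 4 and 8 h in M28. In K326 it averaged 74.7 ± 3.35, 48.6 ± 7.31, 40.2 ± 1.69, 35.6 ± 1.63 and 77.7 ± 3.56 FPKM. In M28 most of the difference from 0 h lay between 2 and 4 h, while its K326 levels at those times were close. Member 5 averaged 19.7 ± 0.984, 19.0 ± 2.38, 15.6 ± 0.827, 9.51 ± 1.21 and 35.2 ± 3.48 FPKM in M28. In K326 it averaged 18.1 ± 2.10, 17.7 ± 5.48, 17.9 ± 2.45, 8.42 ± 2.23 and 29.5 ± 3.48 FPKM, flat to 2 h and low at 4 h alone. Member 6 averaged 20.0 ± 0.547, 18.6 ± 2.94, 13.7 ± 0.674, 7.06 ± 1.03 and 19.1 ± 8.02 FPKM in M28, where the 8 h libraries split into 23.3 and 24.1 against 9.82 in replicate 3. In K326 it averaged 19.1 ± 3.29, 19.4 ± 2.00, 11.9 ± 0.578, 9.55 ± 1.07 and 20.5 ± 0.364 FPKM, with less separation between 2 and 4 h than in M28. Member 8 averaged 19.1 ± 0.847, 18.0 ± 1.24, 12.4 ± 0.988, 6.82 ± 2.03 and 24.7 ± 1.94 FPKM in M28. In K326 it averaged 15.0 ± 2.35, 12.4 ± 5.07, 13.2 ± 1.43, 6.73 ± 1.5 and 17.2 ± 1.98 FPKM, with 1 h libraries at 18.2, 9.90 and 9.04.

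**Figure D3:**
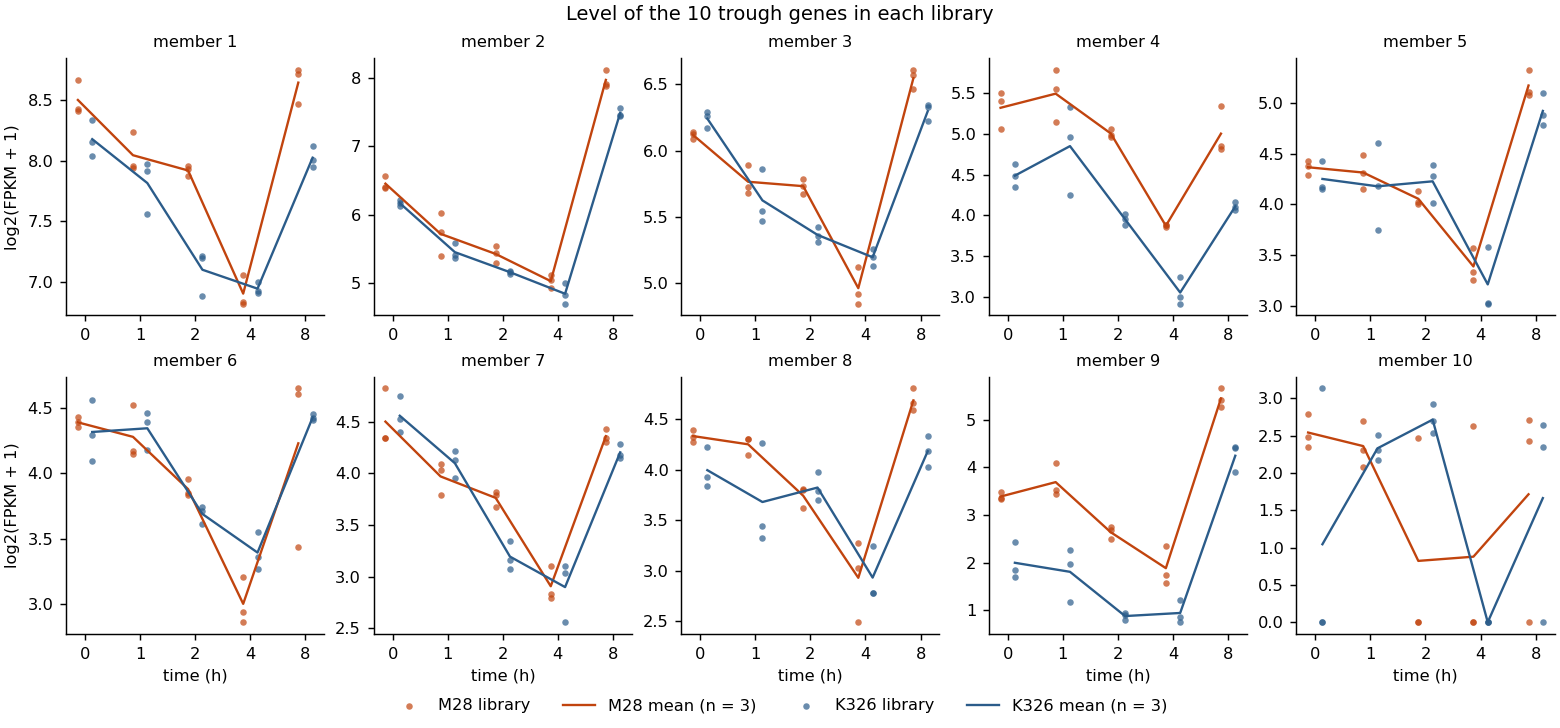
Log2(FPKM + 1) of the 10 members in each library by time, with M28 points and lines left of K326 in every panel; points are libraries and lines join group means (n = 3), and each panel has its own vertical scale. Members 1 to 9 are low at 4 h in both genotypes, with member 9 in K326 slightly lower still at 2 h (0.834 FPKM, and 0.936 at 4 h), the M28 mean lies above the K326 mean at all times in members 2, 4 and 9, and member 10 jumps between 0 and a narrow band of higher values.

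The members differed from one another in the level after the trough. The 8 h mean was below the 0 h mean for 4 of 10 members in M28 and 3 of 10 in K326. Over all genes the shares were near these, 39.7 and 33.4%. The 8 h mean was above the 0 h mean in both genotypes for 5 members (2, 3, 5, 8 and 9) and below it in both for 2 (4 and 7). For 3 members (2, 5 and 9) all libraries at 8 h lay above all libraries at 0 h in both genotypes, as for 29.6% of all genes tested, and for 0 members did they all lie below, as for 13.3%. Across the 10 members the 8 h minus 0 h log2 difference ran from -0.83 to 2.06 in M28 and from -0.38 to 2.25 in K326. Member 10 gave the lowest value in M28, and without it the range there began at -0.32. This difference is the sum of contrasts that the rule used, and it was not tested.

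The 2 h libraries entered no contrast of the rule, only its filter on the mean over the 30 libraries. They were used to ask when the decline was under way. From 1 to 2 h, 1 of the 10 members fell in M28 (member 9) and 6 fell in K326 (members 1, 3, 4, 6, 7 and 9), by limma with Benjamini-Hochberg adjustment over all 19599 genes and a threshold of 0.05. Of all genes tested, 1.91% fell from 1 to 2 h in M28 and 5.97% in K326. The count of 0 members that rose stands beside 2.35% of all genes in M28 and 12.1% in K326, and at an unadjusted p below 0.05 there were also 0 members higher in either genotype. At that unadjusted level 5 members were lower in M28 and 7 in K326. The share of all genes at an unadjusted p below 0.05 is not given, so nothing is read from such counts, here or below. The estimate was below 0 for 10 of 10 members in M28 and for 7 of 10 in K326, where 54.8 and 36% of all genes were below 0. The medians over the members were -0.35 and -0.47, against medians over all genes of -0.02 and 0.09. Without member 10 the medians over the members were -0.29 in M28 and -0.66 in K326. The 1 h libraries entered the rule through the bound on 1 h minus 0 h, so this step is only in part independent of how the members were chosen.

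Member 9 fell in both genotypes, by 1.05 on the log2 scale in M28 (SE 0.239, adjusted p = 0.0107) and by 0.93 in K326 (SE 0.239, adjusted p = 0.00826), lower in 3 of 3 libraries each. A fall in both was found for 1 member, as for 0.821% of all genes. Member 7 had a log2 difference of -0.21 in M28 (SE 0.138, adjusted p = 0.487) and of -0.90 in K326 (SE 0.138, adjusted p = 6.57e-05). For member 1 the difference was -0.13 in M28 (SE 0.113, adjusted p = 0.636) and -0.72 in K326 (SE 0.113, adjusted p = 9.34e-05). For member 4 it was -0.49 in M28 (SE 0.185, adjusted p = 0.148) and -0.90 in K326 (SE 0.185, adjusted p = 0.00146). Members 5 and 8 had estimates of -0.26 and -0.51 in M28 and of 0.05 and 0.14 in K326, and none of these passed.

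Whether the step itself differed between genotypes was tested with the difference of the steps, M28 minus K326. This was called for 0 of 10 members by limma, against 0.857% of all genes at the same adjusted threshold. At an unadjusted p below 0.05 there were 3 members, with no share of all genes to set beside them. Member 7 had a difference of 0.70 (SE 0.195, adjusted p = 0.0779) and member 1 a difference of 0.59 (SE 0.159, adjusted p = 0.068), both with the estimate nearer 0 in M28. Member 8 had a difference of -0.65 (SE 0.266, adjusted p = 0.211). With the values as deposited, the larger number of members that fell in K326 is therefore not shown to be a difference between the genotypes. Member 1 passed after median-of-ratios scaling (0.71, adjusted p = 0.0415), after quantile normalization (0.68, adjusted p = 0.0404), with replicate number as a block (0.59, adjusted p = 0.048), and without M28 1 h replicate 1 or K326 1 h replicate 2. Members 7 and 8 passed without K326 1 h replicate 1.

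The step counts depended on which libraries gave the spread. When only the groups compared were fitted, 2 members fell in M28 (members 8 and 9) and 3 in K326 (members 1, 6 and 7), where 1.43% of all genes fell in M28 and 2.06% in K326. Scaling moved the K326 count less: member 2 passed as well after median-of-ratios scaling (adjusted p = 0.0118) and quantile normalization (adjusted p = 0.0278), making 7, and member 3 lost its call with equal totals (adjusted p = 0.0512), which left 5. In K326, 9.87, 8.64 and 5.41% of all genes fell under these 3 scalings. In K326, member 3 lost its call without K326 1 h replicate 1, K326 2 h replicate 1 or K326 2 h replicate 2, member 6 without K326 1 h replicate 1 or 3 or K326 2 h replicate 3, and member 9 without K326 1 h replicate 3. Single libraries also moved the count in M28: member 9 lost its call without M28 1 h replicate 1 or M28 2 h replicate 3, which left 0 calls, and a further member passed, making 2, without M28 1 h replicate 2, M28 8 h replicate 3, K326 1 h replicate 1 or K326 1 h replicate 2.

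**Figure D4:**
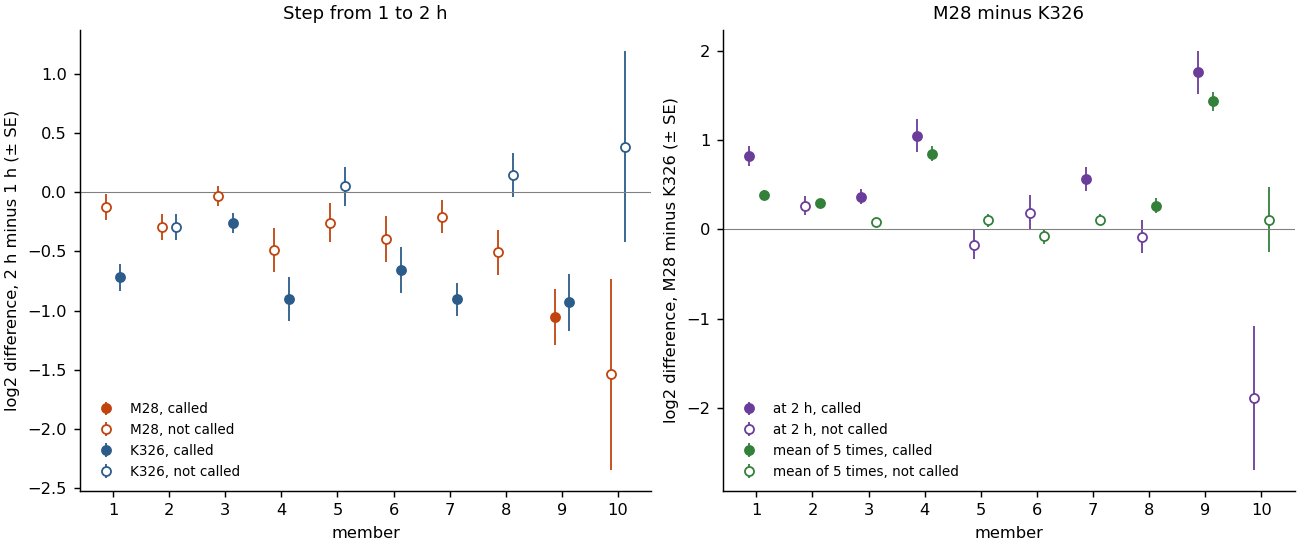
Left, log2 difference from 1 to 2 h of each member in M28 and K326; right, log2 difference M28 minus K326 at 2 h and averaged over the 5 times; points are estimates, bars are standard errors, and filled points had an adjusted p below 0.05. On the left 1 point is filled in M28 and 6 in K326, and on the right all filled points lie above 0.

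At 2 h, 5 members were higher in M28 than in K326 (members 1, 3, 4, 7 and 9) and 0 were lower by limma, where 19.7% of all genes were higher and 7.56% lower. At an unadjusted p below 0.05, 6 members were higher and 1, member 10, was lower, with no share of all genes to set beside these counts. Member 9 had a mean level of 5.24 ± 0.556 in M28 and of 0.834 ± 0.1 in K326, both in FPKM (SD, n = 3 each; log2 difference 1.76, SE 0.239, limma adjusted p = 4.93e-06). Member 4 stood at 31.2 ± 1.17 FPKM in M28 against 14.5 ± 0.702 in K326 (log2 difference 1.05, SE 0.185, limma adjusted p = 0.000132). For member 1 the means were 241 ± 7.22 FPKM in M28 against 137 ± 17.1 in K326 (log2 difference 0.82, SE 0.113, limma adjusted p = 5.81e-06). For member 7 they were 12.6 ± 0.742 FPKM in M28 against 8.19 ± 0.894 in K326 (log2 difference 0.57, SE 0.138, limma adjusted p = 0.00324). In each of these the 3 M28 libraries lay above the 3 K326 libraries, as they did for 7 members in all (1, 2, 3, 4, 6, 7 and 9) and for 32.3% of all genes. This comparison shares the K326 2 h libraries with the K326 step above, and low values there enter both.

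The 5 calls at 2 h held after median-of-ratios scaling and quantile normalization, which moved the median difference of all genes at that time to 0.00 and 0.01, against 0.10 with the deposited values. Of all genes, 11.2% were then higher and 12.2% lower after median-of-ratios scaling, and 12.8% higher and 10.8% lower after quantile normalization. The median M28 minus K326 difference over the 10 members was 0.30, 0.19, 0.32, 0.09 and 0.37 at 0, 1, 2, 4 and 8 h. Over all genes it was 0.22, 0.20, 0.10, 0.17 and 0.13 at 0, 1, 2, 4 and 8 h.

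Averaged over the 5 times, 5 members were higher in M28 (members 1, 2, 4, 8 and 9) and 0 lower by limma, where 54.2% of all genes were higher and 14% lower. The share of members higher in M28 was thus near that of all genes. At an unadjusted p below 0.05, 6 were higher and 0 lower, with no share of all genes to set beside these counts. The largest difference was that of member 9, Nitab4.5_0000130g0300, at 1.44 (SE 0.107, adjusted p = 1.39e-11), followed by member 4, Nitab4.5_0000241g0060, at 0.85 (SE 0.0828, adjusted p = 2.04e-09). Member 1 followed at 0.39 (SE 0.0504, adjusted p = 2.22e-07). The smaller differences depended on scaling. After median-of-ratios scaling, which set the median of all genes at 0.00, against 0.16 with the deposited values, 3 members were higher and 2 lower (member 3 at -0.11 and member 6 at -0.26), where 26.8% of all genes were higher and 29.0% lower. After quantile normalization 4 members were higher and 1 lower, where 29.4% of all genes were higher and 25.7% lower. After scaling to equal totals 8 members were higher and 0 lower, where 65.4% of all genes were higher and 10.3% lower. Members 1, 4 and 9 were higher in M28 under each of these.

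Set against other times, the 4 h libraries also lay below all 2 h libraries for 9 members in M28 and 7 in K326, as for 10.1 and 17.7% of all genes. The 4 h libraries chose the members, so that count is a description. The exceptions were member 10 in M28 and members 1, 7 and 9 in K326.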

How the data were processed

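A single FPKM table, deposited by the authors, has a column per library, with no pooling of replicates. The unit was taken from the name of the authors' table and from its values. The submitters' processing notes name the tools FastQC, Trimmomatic, HISAT2 and featureCounts. Their versions and roles, the genome build and how FPKM was computed are not given in the sources used here. Groups, times and replicate numbers come from the sample titles.

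Values were analysed as log2(FPKM + 1) without further scaling, keeping the 19599 genes that averaged 1 FPKM or more. Log2 differences are on this scale and are too small for low genes. A single limma 3.58.1 model (R 4.3.3, empirical Bayes, trended prior) covered the 10 groups and 30 libraries. Benjamini-Hochberg adjustment ran over all genes tested, separately in 5 comparisons, and calls needed an adjusted p below 0.05. The fit was tested on simulated data. Members and tests were chosen with earlier results of these data known. IDs are printed for at most 2 members per direction and comparison, by size of the difference among members called, for the 2 most abundant and for the 2 deepest troughs (at least 5 FPKM at 0 h). Alternatives were other pseudocounts, filters, scalings and rule thresholds, a replicate block, a fit of the compared groups alone and leaving out each library. No absolute depth can be had from FPKM, so no counting interval was computed.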

Additional observations from a re-analysis of the deposited data

How the results depend on the processing

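The rule gave 19 genes with a pseudocount of 0.1 FPKM and 22 with a threshold of 0.6, between 9 and 12 with other filters, scalings and a threshold of 1, and between 9 and 12 with any library left out. Members 1, 3, 4, 5, 7, 8 and 9 met it in 30 of 30 runs with a library left out, members 2 and 6 in 29 and member 10 in 25. At a threshold of 0.6, which also moved the bound at 1 h, members 2 and 3 dropped out and 14 genes came in. At a threshold of 1, members 5, 6 and 10 dropped out and 2 genes came in. Member 10 also dropped out with a mean of at least 5 FPKM and after median-of-ratios scaling.

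Counts of members that differed between genotypes over all times moved with scaling. With the members retained, 3 were higher and 2 lower in M28 after median-of-ratios scaling, 1 was lower after quantile normalization, and 8 were higher with equal totals. With members chosen again, 3 of 12 were lower after median-of-ratios scaling and 2 of 12 after quantile normalization. With equal totals 9 of 12 were higher and 1 lower. With the pseudocount of 0.1 FPKM 9 of 19 were higher and 2 lower, where 53.9% of all genes were higher and 13.8% lower. Leaving out a library gave 0 lower with the members retained and 0 to 2 lower with members chosen again. With the members retained, member 3 passed as higher without M28 1 h replicate 2, M28 4 h replicate 2, M28 8 h replicate 3 or K326 1 h replicate 1. The uncalled difference of member 7, Nitab4.5_0004095g0010, reversed to -0.068 after median-of-ratios scaling and to -0.058 under quantile normalization.

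At 2 h with the pseudocount of 0.1 FPKM and members chosen again, 1 of 19 was lower in M28, where 7.27% of all genes were lower. In a fit of the compared groups alone 1 of 10 was lower, where 9.98% of all genes were. With a library left out and the members retained, 0 to 1 was lower (member 10, without M28 2 h replicate 3 or K326 0 h replicate 2). With members chosen again it was also 0 to 1, such as 1 of 12 without M28 0 h replicate 2. From 1 to 2 h, 2 members fell in M28 and 3 in K326 in a fit of the compared groups alone, and 0 to 2 fell in M28 with a library left out. A differing step was called for 1 of 10 members after median-of-ratios scaling or quantile normalization, and for 1 of 12 with members chosen again. With equal totals and members chosen again it was called for 1 of 12, and with a library left out for 0 to 2. Of all genes, 0.944% were called higher and 0.347% lower after median-of-ratios scaling. The shares were 0.73 and 0.347% after quantile normalization, and 0.214 and 0.449% with equal totals. The median 8 h minus 0 h difference in K326 reversed to -0.071 under median-of-ratios scaling and to -0.045 under quantile normalization, and the median at 4 h in K326 was -1.30 with the pseudocount of 0.1 FPKM. The cause of these changes was not tested.

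Whether replicate numbers pair the libraries cannot be settled with 3 libraries per group. Deviations of same-numbered libraries correlated between -0.121 and 0.15 in the groups compared. Of the M28 libraries at 2 h, 2 of 3 correlated best with their own number in K326 at 2 h, and 3 of 3 with that in M28 at 1 h. Of the K326 libraries at 2 h, 1 of 3 correlated best with its own number at 1 h. With the replicate block, a differing step was called for 1 member, member 1 (0.59, adjusted p = 0.048), and no other call of a member changed. The depth behind each value is unknown, so what it limits was not measured.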
